A study of Homo sapiens with 8 samples.

Results

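Dense CHD4 domains are stretches of the genome where CHD4 binding sites recur at short distances. They were chosen in 3 steps from the authors' peak lists, in hg19 coordinates. Peaks of the 6 lists sharing 1 bp or more were fused, which gave 18808 regions, and the 8233 of these with a peak of 2 or more libraries were kept. Kept regions less than 10 kb apart were joined into 6403 domains, and a domain was called dense if it held 5 or more regions. This gave 56 dense domains with 350 regions, 4.25% of the kept regions and 0.875% of the domains. Without DOC1 1 the same rule gave 27 domains, and without DOC1 3 it gave 30. The presence and position of peaks chose the domains, so their number, spacing and density are given as a description, without a test.

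SCC9 is a cell line that was grown from a squamous carcinoma of the tongue. ChIP-seq, which pulls down crosslinked chromatin fragments with an antibody and sequences them, was used to map CHD4 along its genome. Cells with DOC1 (labelled DOC1) and cells without it (labelled lacZ) each had 3 CHD4 libraries, numbered 1 to 3, and 1 IgG library that was not analysed here as a sample of its own. Values are given in the order of the library numbers within each group. All groups shared the same cell line, and the labels name no other treatment or allele. lacZ is a bacterial gene commonly used as a control insert. The labels do not say whether the numbered libraries came from separate cultures or how many clones a line held, so every p-value below rests on a library-to-library spread that can be purely technical. The lists held between 2812 and 11032 peaks, and the median summit held between 15 and 38 reads, as reconstructed from the deposited statistics.

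CHD4 is the ATP-driven motor of NuRD, a chromatin complex that moves nucleosomes and removes acetyl groups from histones. DOC1, encoded by CDK2AP1, is one of its smaller proteins. NuRD is found at many active enhancers and promoters, where it is known to tune transcription and, in several cell types, to help set epithelial and mesenchymal programmes. Enhancers often lie in clusters, with several separate sites of factor binding over a stretch of DNA. The comparison asked whether the number of CHD4 peaks in dense domains differs between cells with and without DOC1. No gene table of hg19 was used here, so the domains are named by position.

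The domains were mostly short runs of separate sites and not continuous blocks. They spanned 19.2 kb at the median, from 6.90 to 59.9 kb, and 1.23 Mb in all. Regions covered 23.5% of a domain's span at the median, between 11.2% and 50.4%. A region was 722.5 bp long at the median, against 530 bp for the other kept regions. The gap from one region to the next was 2.31 kb at the median, with the shortest at 6 bp and the longest at 9.80 kb. Of the 56 domains, 27 held 5 regions, 22 held 6 to 8 and 7 held 9 or more. At the threshold, the 27 domains of 5 regions had a median span of 16.1 kb and the 76 domains of 4 regions just outside it had one of 14.4 kb. The domains of 5 regions held 3.74, 1.30 and 4.67 peaks each in the DOC1 libraries, and 3.74, 1.96 and 3.26 in the lacZ libraries. The domains of 4 regions held 2.80, 0.684 and 3.78 peaks in the DOC1 libraries, and 3.03, 1.38 and 2.05 in the lacZ libraries.

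The largest domain lay on chromosome 20 (49029493 to 49077525) and held 12 regions over 48.0 kb. It held 11, 7 and 11 peaks in the DOC1 libraries, and 12, 6 and 9 peaks in the lacZ libraries. Every library thus had at least 6 peaks there, and 3 of the 12 regions were found in all 6 libraries. The best of these (49050795 to 49051956) stood at the 98.6th, 95.6th and 94.8th percentile of fold enrichment in the DOC1 libraries, and at the 98.4th, 96.9th and 95.1st in the lacZ libraries. Fold enrichment is the peak caller's ratio of the summit's reads to those it expected there by chance. Percentiles rank a peak within its own list. A second domain lay on the same chromosome (48894984 to 48926077), with 9 regions over 31.1 kb and 3 of them in all 6 libraries. It held 8, 6 and 9 peaks in the DOC1 libraries, and 9, 4 and 6 in the lacZ libraries. Its best region (48894984 to 48896194) stood at the 73.7th, 92.6th and 98.99th percentile in the DOC1 libraries, and at the 85.5th, 96.2nd and 95.05th in the lacZ libraries.

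The next domains in size lay on chromosomes 17, 11 and 9. A domain on chromosome 17 (74494235 to 74554096) held 11 regions over 59.9 kb, with 8, 3 and 11 peaks in the DOC1 libraries and with 11, 5 and 6 peaks in the lacZ libraries. Its best region (74527920 to 74528807) ranked between the 61.3rd percentile in DOC1 1 and the 96.8th in DOC1 3. A domain on chromosome 11 (118779725 to 118809354) held 10 regions, none of them in all 6 libraries. DOC1 1 and DOC1 3 had 9 and 10 peaks there and DOC1 2 had 1, while lacZ 1, lacZ 2 and lacZ 3 had 6, 4 and 4. One of its regions (118800276 to 118801232) had a peak in every DOC1 library and in no lacZ library, with folds of 6.23, 4.78 and 7.08 in the DOC1 libraries. A domain on chromosome 9 (35644593 to 35676048) held 9 regions, with 11, 4 and 10 peaks in the DOC1 libraries and 7, 2 and 9 in the lacZ libraries. Another domain on chromosome 17 (76324886 to 76357215) held 9 regions, 3 of them in all 6 libraries. There the counts were 9, 4 and 9 peaks in the DOC1 libraries, and 8, 6 and 6 in the lacZ libraries. Its best region (76326497 to 76327457) stood between the 89.97th and the 99.3rd percentile in every library.

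The 6 domains that follow complete the 12 with the most regions. A domain on chromosome 1 (16465829 to 16516023) held 9 regions, with 7, 3 and 10 peaks in the DOC1 libraries and with 7, 7 and 8 in the lacZ libraries. On chromosome 19, a domain of 8 regions (45244486 to 45269365) had 7, 2 and 8 DOC1 peaks and 6, 1 and 2 lacZ peaks. A second one of 8 regions on that chromosome (13947935 to 13973222) had 4, 2 and 6 DOC1 peaks and 8, 5 and 6 lacZ peaks. These neighbours in size thus differed in which group held more of the regions. The domain on chromosome 12 (125223102 to 125259230) held 8 regions with 5, 3 and 9 DOC1 peaks and 9, 7 and 9 lacZ peaks. The domain of 8 regions on chromosome 6 (44001995 to 44042651) had 9, 3 and 7 DOC1 peaks and 6, 4 and 8 lacZ peaks. The domain of 7 regions on chromosome 6 (28907190 to 28921222) had 6, 2 and 6 DOC1 peaks and 4, 3 and 3 lacZ peaks.

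Dense domains were mostly shared between libraries, but libraries differed in how many of the regions they held. All 6 libraries had a peak in 44 of the 56 domains, 5 libraries in 11 and 4 libraries in 1. DOC1 2 had no peak in 9 domains and lacZ 2 had none in 4, and these were the shortest lists of their groups. DOC1 3 held every region in 28 domains and DOC1 1 in 7, while DOC1 2 did so in 0. lacZ 1 held every region in 17 domains and lacZ 3 in 5, while lacZ 2 did so in 0. DOC1 1, DOC1 2 and DOC1 3 had peaks in 72%, 25.7% and 87.7% of the 350 regions, and lacZ 1, lacZ 2 and lacZ 3 in 77.7%, 42% and 58.9%. The groups overlap in these shares. The longest list, DOC1 3, had the highest, and DOC1 2 had the lowest although lacZ 2 was shorter. Among the other kept regions the same libraries held 65.5%, 15.7% and 83.0% with DOC1 and 65.3%, 30.8% and 46.6% without it. Each library thus held a larger share of the regions in dense domains than of those outside. The same peaks chose the domains, so these shares are a description.

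**Figure D1:**
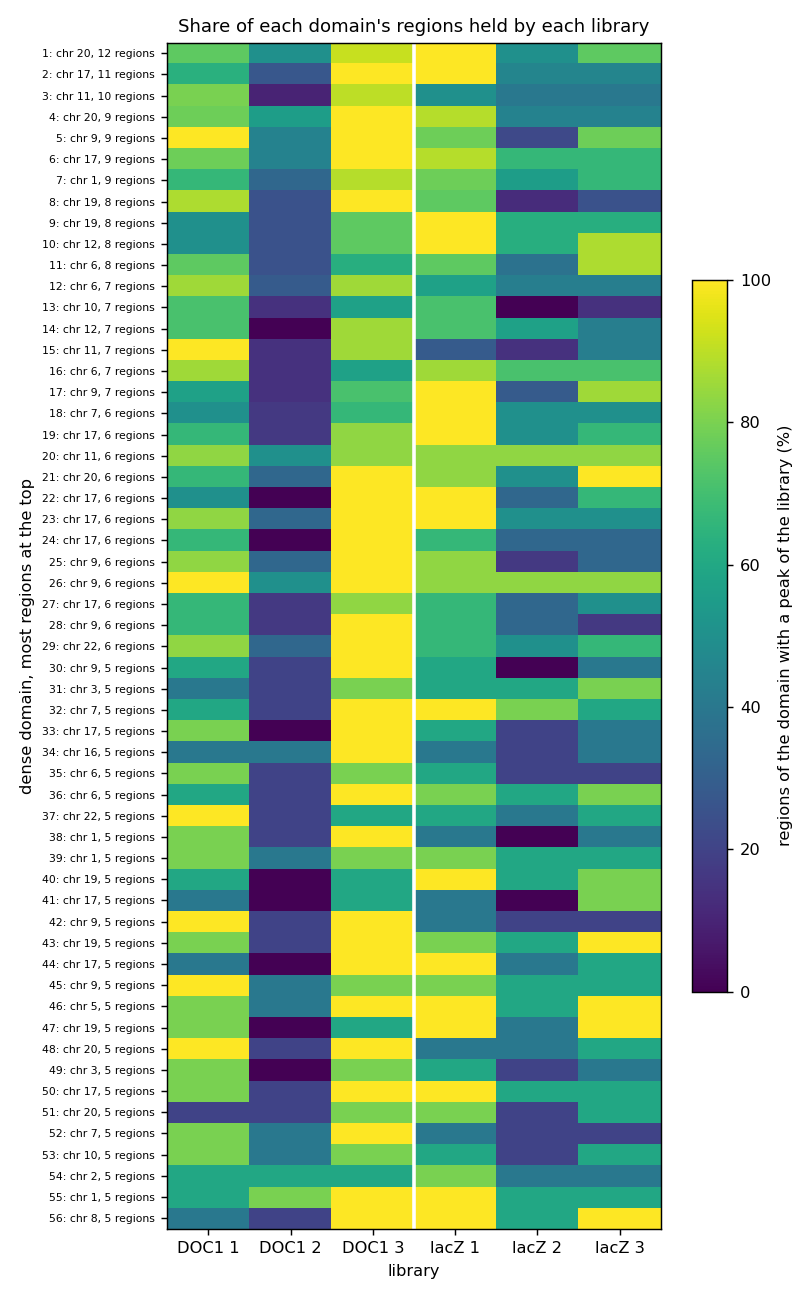
Share of the regions of each dense domain (rows, most regions at the top) that held a peak of each library (columns, DOC1 left of lacZ), in percent. DOC1 3 holds every region in 28 domains and DOC1 2 holds no region in 9, so libraries within a group differ more than the groups do.

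Within a single list, the number of dense runs varied widely. A run of 5 or more peaks of a single list, each less than 10 kb from the next, occurred 42, 3 and 140 times in the DOC1 libraries, and 44, 4 and 23 times in the lacZ libraries. A library's peaks reached 5 of the regions of a dense domain in 23, 2 and 41 domains for the DOC1 libraries, and in 31, 9 and 17 domains for the lacZ libraries. Only DOC1 3 and lacZ 1 reached 5 regions in most of the domains. The domains also enclosed 62 further regions found in 1 library alone, which the rule does not count, and 29 of these came from DOC1 3.

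Regions in dense domains recurred in more libraries than those outside. The rule itself used the number of libraries per region, and the length of a merged region is not independent of that number. The recurrence is thus given as a description, with no test. All 6 libraries met in 52 of the 350 regions (14.9%) and in 5.91% of the other 7883 kept regions. The mean number of libraries per region was 3.64 in dense domains and 3.07 outside. The shares at exactly 2 libraries, the least the rule allows, were 31.1% and 46.4%. Below the threshold, all 6 libraries met in 5.10% of the regions that stood alone, 6.52% of those in pairs, 9.37% of those in threes and 8.88% of those in fours. Regions at the 2 ends of a dense domain were found in 3.59 libraries on average and those between them in 3.66. A region found in all 6 libraries was present in 32 domains, and 24 domains had none. The domains richest in such regions were on chromosome 1 (23703065 to 23729819), with 3 of 5 regions, on chromosome 11 (59317908 to 59334054) and chromosome 9 (35903115 to 35925031), each with 3 of 6, and on chromosome 1 (145083161 to 145096523), with 2 of 5.

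Regions found in every library of a group and in no library of the other were rare, in the domains as among all kept regions. All 3 DOC1 libraries but no lacZ library had a peak in 6 of the 350 regions (1.71%), against a background of 2.23% of all kept regions. All 3 lacZ libraries but no DOC1 library had one in 7 regions (2%), against 2.68%. Both shares were near their background. The 6 regions with DOC1 lay in 6 domains on chromosomes 1, 2, 6, 7, 10 and 11. The one with the best rank in its worst list (238190394 to 238190971, chromosome 2) had folds of 6.55, 5.32 and 6.30 in the DOC1 libraries. The 7 regions without DOC1 lay in 7 domains on chromosomes 6, 7, 9, 12 and 17. By the same rank the first of these (132235744 to 132236512, chromosome 9) had folds of 10.2, 8.66 and 8.73 in the lacZ libraries. With 2 or more libraries of a group and none of the other, 59 regions (16.9%, against 26.2% of all kept regions) were found with DOC1 and 25 (7.14%, against 10.3%) without it. Peaks of both groups met in 266 regions, 76% of those in dense domains and 63.0% of those outside.

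Dense domains took up less of every DOC1 list than of the lacZ lists. The share was 3.52%, 2.90% and 2.99% of the peaks in the DOC1 libraries, and 4.10%, 5.58% and 4.93% in the lacZ libraries. The 95% Wilson intervals, which cover counting error only, were 3.14 to 3.95%, 2.39 to 3.51% and 2.69 to 3.33% for the DOC1 libraries in the same order. For the lacZ libraries they were 3.66 to 4.59%, 4.79 to 6.49% and 4.35 to 5.59%. The means were 3.14 ± 0.34% with DOC1 and 4.87 ± 0.74% without it (SD, n = 3 each), a difference of -1.73 percentage points. The groups did not overlap, but the peaks counted are those that chose the domains, so this is a description with no test. With the lists cut to the length of the shortest, the rule was applied anew and gave 13 dense domains with 74 regions. These held 1.56%, 1.17% and 1.96% of the peaks in the DOC1 libraries, and 1.81%, 1.99% and 1.99% in the lacZ libraries. The difference was then -0.37 percentage points and the groups overlapped, with DOC1 3 above lacZ 1.

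The order also depended on what the share was taken of. Peaks seen in 1 library alone, which cannot lie in a kept region, made up 27.7%, 60.6% and 36.3% of the peaks in the DOC1 libraries, and 21.0%, 5.55% and 14.2% in the lacZ libraries. Of the peaks in kept regions alone, dense domains held 4.87%, 7.36% and 4.70% in the DOC1 libraries, and 5.19%, 5.91% and 5.75% in the lacZ libraries. These means were 5.64 ± 1.49% with DOC1 and 5.62 ± 0.38% without it (SD, n = 3 each), and DOC1 2 alone had both the highest value here and the lowest of all peaks. Without DOC1 2, the difference in the share of peaks in kept regions was -0.77 percentage points.

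Domains were also built without the library scored on them, so that a library's own peaks could not define them. Peaks of the library that overlapped regions of dense domains from the other 5 lists made up 1.70%, 2.76% and 1.49% in the DOC1 libraries. In lacZ 1, lacZ 2 and lacZ 3 they made up 2.65%, 5.16% and 4.02%. The means were 1.98 ± 0.68% with DOC1 and 3.94 ± 1.26% without it (SD, n = 3 each), a difference of -1.96 percentage points that did not pass the test (two-sided exact permutation p = 0.2, and 0.3 after Benjamini-Hochberg adjustment over 3 measures). In this design 3 libraries against 3 allow no p below 0.1. DOC1 2, at 2.76%, lay just above lacZ 1, at 2.65%. Each library is here scored on domains of 2 lists of its own group and 3 of the other, and on fewer domains where a long list is left out. There were 27, 54 and 30 domains for the DOC1 libraries, and 40, 53 and 47 for the lacZ libraries. DOC1 1 and DOC1 3 thus had the fewest domains for their peaks to fall in. The difference was not corrected for this and is not a like comparison of the groups.

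**Figure D2:**
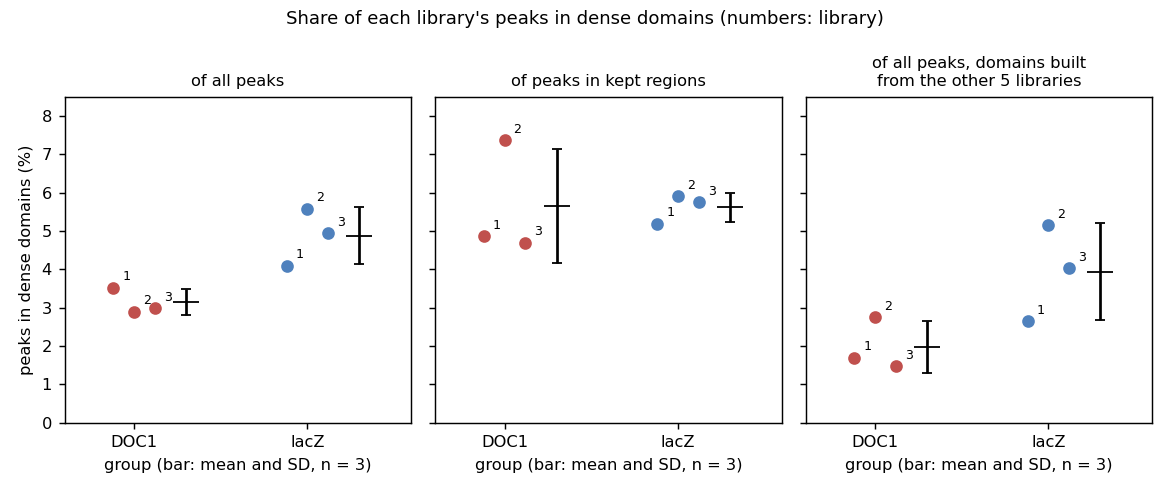
Share of each library's peaks that lay in dense domains, in percent, with DOC1 left of lacZ. Points are libraries with their numbers and bars are the mean and SD of 3. Of all peaks the DOC1 libraries lie at 2.90 to 3.52% and the lacZ libraries at 4.10 to 5.58%, while of peaks in kept regions the groups overlap (4.70 to 7.36% and 5.19 to 5.91%).

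The number of peaks per dense domain did not separate the groups. It was 4.93, 1.79 and 5.89 in the DOC1 libraries, and 5.14, 2.80 and 4.16 in the lacZ libraries. The means were 4.20 ± 2.15 with DOC1 and 4.04 ± 1.17 without it (SD, n = 3 each), a difference of 0.17 peaks. This number takes no account of list length, and the difference was 1.38 peaks without DOC1 2, -1.44 without DOC1 3, -0.93 without DOC1 1 and -0.46 without lacZ 2. The direction of the difference thus rested on which library was left out.

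Single domains were compared as peaks per 1000 peaks of the library. All DOC1 libraries lay below all lacZ libraries in 20 of the 56 dense domains (35.7%), against a background of 15.7% of all 6403 domains. It was 14.3% of the 5180 domains of 1 region and 20.9% of the domains of 2 to 4 regions. The share thus rose with the number of regions, and most of the background is domains of 1 region. The DOC1 libraries all lay above the lacZ libraries in 1 dense domain (1.79%, against 2.58% of all domains). That count was 0 without DOC1 1 (0%, against 4.66%) or DOC1 3 (0%, against 4.604%) and 2 without lacZ 2 (3.77%, against 2.90%). It was 3 without lacZ 1 (7.50%, against 4.89%) and 5 without DOC1 2 (9.26%, against 24.3%). When counted per 1000 of the library's peaks in kept regions, 9 dense domains lay below (16.1%, against 14.1% of all domains) and 5 above (8.93%, against 2.95%), and the 9 were all among the 20. The count of domains below lacZ was thus near its background once peaks seen in 1 library alone were left out of the denominator.

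The widest gap was in the domain of 8 regions on chromosome 12 (125223102 to 125259230). It had 0.64, 0.87 and 0.82 peaks per 1000 in the DOC1 libraries, and 1.28, 2.49 and 1.91 in the lacZ libraries, a difference of -1.12 between the means of 0.77 ± 0.12 and 1.89 ± 0.60 (SD, n = 3 each). One of its regions (125223602 to 125224095) had a peak in every lacZ library, with folds of 7.34, 8.28 and 10.5, and in no DOC1 library. A domain of 6 regions on chromosome 20 (30180855 to 30199128) followed, with means of 0.54 ± 0.03 peaks per 1000 with DOC1 and 1.44 ± 0.46 without it. The domains on chromosome 19 (13947935 to 13973222) and chromosome 1 (16465829 to 16516023) had differences of -0.85 and -0.84. Next were a domain of 5 regions on chromosome 19 (2618351 to 2631863), at -0.73, and one of 5 regions on chromosome 8 (67424469 to 67459330), at -0.70. Of these 6, only the last 2 also lay below lacZ per 1000 peaks in kept regions.

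The domain above lacZ lay on chromosome 7 (129992396 to 130014184) and held 5 regions. It had 5, 2 and 7 peaks in the DOC1 libraries, and 2, 1 and 1 in the lacZ libraries. Per 1000 peaks the means were 0.62 ± 0.03 with DOC1 and 0.28 ± 0.07 without it (SD, n = 3 each), and the order was the same per 1000 peaks in kept regions. Its first region (129992396 to 129992978) had a peak in all 3 DOC1 libraries and no lacZ library, with folds of 4.50, 5.19 and 5.44. The median fold enrichment of the domain's peaks stood at the 26.1st percentile over libraries.

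Peaks in dense domains were wider than those in other kept regions in 6 of 6 libraries. Their median width was 380, 316.5 and 565 bp in the DOC1 libraries, and 532.5, 378 and 364 bp in the lacZ libraries. Outside the domains it was 310, 300 and 442 bp in the DOC1 libraries, and 422, 320 and 319 bp in the lacZ libraries. The mean of the within-library differences was 70.5 ± 40.2 bp (SD, n = 6 libraries). A peak's start and end were used to merge peaks and to measure gaps, so the width is given as a description, with no test. Summits in the domains held 19, 20 and 44 reads in the DOC1 libraries and 49, 34 and 26.5 in the lacZ libraries. Summits in other kept regions held 16, 17 and 37 reads in the DOC1 libraries and 40, 27 and 22 in the lacZ libraries.

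The local background was higher in dense domains too. It is what the peak caller expected at the summit by chance, given here as a multiple of the median of the list. It was 1.40, 1.55 and 1.33 in the DOC1 libraries, and 1.49, 1.30 and 1.19 in the lacZ libraries. In other kept regions it was 1.07, 1.26 and 1.00 in the DOC1 libraries, and 1.07, 1.00 and 1.00 in the lacZ libraries. The mean difference was 0.31 ± 0.07 (SD, n = 6 libraries, higher in 6 of 6, two-sided exact sign-flip permutation p = 0.03125, the smallest that 6 libraries allow, and 0.0469 after Benjamini-Hochberg adjustment over 3 measures). The 6 libraries were scored on the same domains, which their peaks had helped to choose. At several regions the backgrounds of lacZ 2 and lacZ 3 also stood in the same proportion. The control given to the caller is not stated, and libraries with a shared control are not independent measures of the background. The p-value takes the 6 libraries as independent, so it holds only if they are. The difference was 0.084 without chromosomes 9 and 17. Over the 6 libraries the local background lay between 1.05 and 1.50 at regions in domains of 4, and between 0.948 and 1.09 at regions that stood alone.

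**Figure D3:**
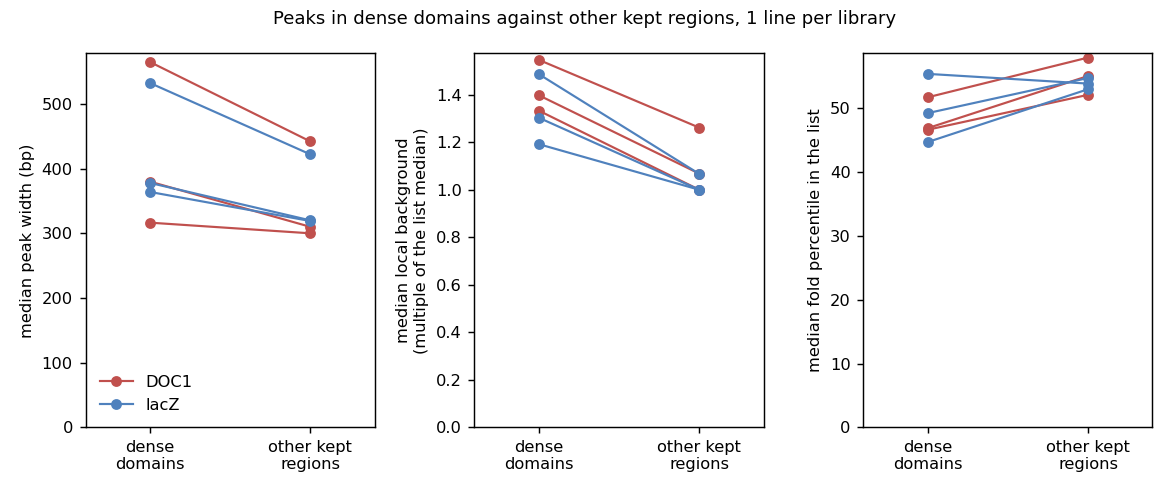
Median peak width (bp), local background (multiple of the list median) and percentile of fold enrichment, in dense domains (left) and other kept regions (right), with 1 line per library. Width and background are higher in dense domains in all 6 libraries, and the fold percentile is lower in 5 of 6.

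By fold enrichment the regions in dense domains ranked somewhat lower than other kept regions in 5 of 6 libraries. Their median percentile was 46.8, 46.6 and 51.7 in the DOC1 libraries, and 49.2, 44.7 and 55.3 in the lacZ libraries. Other kept regions stood at 55.0, 52.1 and 57.9 in the DOC1 libraries, and at 54.7, 53.0 and 53.8 in the lacZ libraries. The mean difference of -5.36 ± 3.60 percentile points did not pass the test (SD, n = 6 libraries, two-sided exact sign-flip permutation p = 0.0625, adjusted 0.0625). It was -8.89 points without lacZ 3, the 1 library with the opposite sign, and passed at exact p = 0.03125 under 5 other rules, with values of -9.83 to -7.06. It turned to 0.88 points without 5 domains of high background on chromosome 9 (exact p = 0.875), and to 5.76 points without chromosomes 9 and 17 (exact p = 0.0625). Fold is a ratio over the local background, so the fold rank and the background are not independent measures. The limit on the independence of the libraries thus holds for the fold rank too.

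These 5 domains lay within 1.29 Mb of chromosome 9 (34637150 to 35925031) and held 31 regions. Their local background was between 4.27 and 23.2 times the list median, in every library. The kept regions of the same stretch outside the domains had a median background of 8.33 to 14.5 times the list median, so the whole stretch stood high. The domain of 9 regions there (35644593 to 35676048) ranked at the 1.39th percentile of fold at the median over libraries. Its best region (35656991 to 35658255) held 139, 157 and 346 reads at the summit in the DOC1 libraries, and 351, 214 and 193 in the lacZ libraries, far above the list medians of 15 to 38. Its fold was between 3.71 and 5.05 all the same. The domain of 6 regions (35903115 to 35925031) stood at 11.1 to 18 times the list median and held peaks of all 6 libraries in 3 regions.

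The long arm of chromosome 17 towards its end was the second such stretch. It held 8 dense domains with 54 regions over 8.96 Mb (71301131 to 80259443), with a local background of 1.66 to 4.50 times the list median in the domains and 1.67 to 2.38 at the other kept regions there. The domain on chromosome 1 (145083161 to 145096523) stood alone at 3.00 to 5.50 times the list median. By the median over libraries, 18 of the 56 domains had a background below that of the list and 25 lay between 1 and 2 times it. A further 7 lay between 2 and 4 times it, and the rest were higher. In every library, 8 domains were above 2 times it. Whether the background has a part in the number of peaks called in these stretches was not tested.

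**Figure D4:**
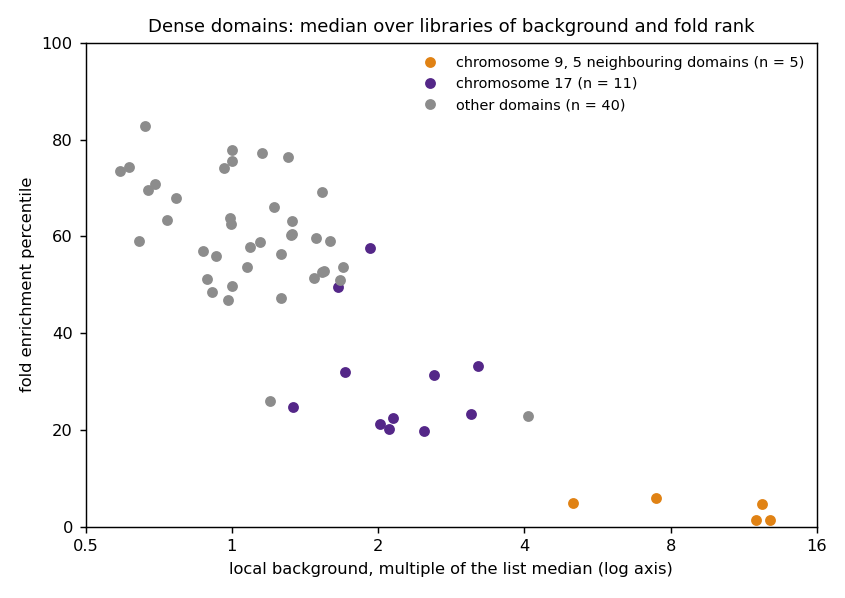
Local background (horizontal, multiple of the list median, log axis) and percentile of fold enrichment (vertical) of the 56 dense domains, each as the median over the libraries with a peak there. The 5 neighbouring domains of chromosome 9 stand alone at high background and low fold rank, 1 domain of chromosome 1 and most of the 11 of chromosome 17 lie between, and most others lie near 1 with ranks above 40.

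Domains with high fold ranks at an ordinary background were found elsewhere. By the median fold percentile over libraries, 35 of the 56 domains stood above 50. The highest was a domain of 7 regions on chromosome 12 (109005451 to 109028564), at the 82.8th percentile and a background of 0.57 to 0.68. It held 5, 0 and 6 peaks in the DOC1 libraries, and 5, 4 and 4 in the lacZ libraries. Then came a domain of 5 regions on chromosome 9 (132330556 to 132337454), far from the stretch above, at the 77.8th percentile. Its peaks ranked at 77.8, 81.8 and 87.0 in the DOC1 libraries, against 43.2 in lacZ 1 and 17.6 in lacZ 3, and lacZ 2 had none. These medians rest on few peaks, with 3, 1 and 5 in the DOC1 libraries, 3 in lacZ 1 and 2 in lacZ 3. The domain of 5 regions on chromosome 1 (23703065 to 23729819) stood at the 77.2nd percentile and was also the richest in regions of all 6 libraries. It held 4, 5 and 5 peaks in the DOC1 libraries, and 6, 4 and 4 in the lacZ libraries. Its first region reached folds of 7.79, 3.88 and 6.52 in the DOC1 libraries, and 13.9, 11.5 and 10.99 in the lacZ libraries, each within its own list. Folds of different lists were not compared, and this region was chosen after its values were seen. A domain of 7 regions on chromosome 11 (114025162 to 114050225) stood at the 76.4th percentile, with 7, 1 and 6 peaks in the DOC1 libraries and 2, 1 and 3 in the lacZ libraries. The highest ranks were those of libraries with 1 or 2 peaks there, at 95.7 in DOC1 2, 92.2 in lacZ 1 and 90.4 in lacZ 2. The libraries with most of its peaks stood at 54.6 (DOC1 1) and 57.5 (DOC1 3), and lacZ 3 stood at 62.5.

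Dense domains were spread unevenly over the chromosomes. Chromosome 17 held 11 domains with 70 regions, 20% of the regions in dense domains and 8.50% of all kept regions. Chromosome 9 held 8 domains with 49 regions (14% and 5.48%), and chromosome 20 held 5 with 37 regions (10.6% and 5.04%). Chromosomes 6 and 19 held 5 each, with 32 and 31 regions. Chromosome 2, by contrast, held 8.68% of the kept regions and 1 dense domain. Domains were found on 16 chromosomes, and the kept regions of chromosomes 4, 13, 14, 15, 18, 21 and X formed none. Peak lists give no measure of mappable length or copy number, so these shares were not tested.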

How the data were processed

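CHD4 ChIP-seq peak lists of 6 SCC9 libraries were analysed, 3 with DOC1 and 3 without, grouped and numbered by title. The submitters' processing notes name Trimmomatic 0.33 for trimming, BWA 0.7.12-r1039, SAMtools 1.2 and, as the peak caller, MACS2 2.1.1.20160309, with hg19 as build. Which control the caller was given is not stated in the sources used here. The authors deposited 1 list per library, with no pooling. Deposited for each peak are a fold enrichment (a ratio), a −log10 p-value, a −log10 q-value and a score, the last not used. Folds were compared only as ranks within a list.

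Reads at the summit and local background were solved from the deposited fold and p-value by the formulas MACS2 is known to use, with a scaling factor of 1 for DOC1 1 and DOC1 2, 0.562 for DOC1 3, 0.476 for lacZ 1, 0.671 for lacZ 2 and 0.809 for lacZ 3. All peaks (100% of each list) matched within 0.002 reads. Reads carry no molecular identifiers in the labels, so intervals cover counting error only. The scripts were tested on simulated data. Exact two-sided permutation tests used 20 assignments between groups and 64 sign patterns within libraries. Tests planned for peak width, for peaks per domain and for the share on the lists' own domains are not reported, since the rule used those values.

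Members, measures and tests were chosen with earlier results of these data known. Named domains are the 12 with the most regions, up to 6 with the largest difference in each direction among those without overlap, and the 4 highest by share of regions in all 6 libraries and by fold percentile. In the 6 largest domains the best region is the one with the highest worst percentile among those of the most libraries. Regions of every library of 1 group, and the first regions of 2 domains, were chosen after their values were seen. No sequences or gene names are given, since no hg19 genome or gene table was used here. Software was Python 3.11.15 with matplotlib 3.10.9, scipy 1.17.1, numpy 2.4.6 and pandas 2.3.3.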

Additional observations from a re-analysis of the deposited data

How the results depend on the processing

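The number of dense domains moved with the rule and with single libraries. It was 27 with regions joined under 5 kb (152 regions), 126 under 20 kb (838 regions), 132 with 4 or more regions (654 regions), 29 with 6 or more (215 regions), 20 with regions of 3 or more libraries (116 regions), 13 with lists of equal length (74 regions) and 37 without chromosomes 9 and 17 (231 regions). Leaving out 1 library gave 27 to 54 domains and 175 to 340 regions. All DOC1 libraries lay below all lacZ libraries in 7 dense domains at 5 kb (25.9%, against 15.5% of all domains under that rule), 43 at 20 kb (34.1%, against 16.1%), 35 with 4 or more regions (26.5%, against 15.7%), 11 with 6 or more (37.9%, against 15.7%), 10 with 3 or more libraries (50%, against 28.5%), 3 with equal lists (23.1%, against 10.3%) and 15 without chromosomes 9 and 17 (40.5%, against 16.1%). They lay above in 0, 2, 3, 0, 0, 0 and 1 under the same rules, where the share of all domains was 2.41 to 4.08%. Without 1 library the counts, per 1000 of all peaks, were 15 to 25 below (37.7 to 59.3%, against 21.9 to 30.7%) and 0 to 5 above. Per 1000 peaks in kept regions, a choice made after seeing the data, they were 9 and 5, and no library was left out there.

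The share of peaks in dense domains was lower with DOC1 on average under every planned rule, with a difference of -4.23 (20 kb) to -0.37 (equal lists, where the groups overlapped) and of -1.59 to -1.31 without 1 library, but it was 0.026 of peaks in kept regions. For domains built from the other 5 libraries the leave-one-out range was -2.42 to -0.89. The peaks per domain changed sign with regions of 3 or more libraries (-0.48), lists of equal length (-0.79) and summits widened by 100 bp (-0.071), and ranged from -1.44 to 1.38 without 1 library. The causes were not tested. The fold percentile passed the test in dense domains joined under 20 kb (-8.16), of 4 or more regions (-7.06), of 3 or more libraries (-8.36), at q of 0.001 (-8.06) and with summits (-9.83), each at exact p = 0.03125, and turned to 0.88 and 5.76 without the chromosome 9 domains and without chromosomes 9 and 17, both chosen after seeing the data. The differences in width (65.3 to 89.7 bp) and background (0.33 to 0.45) kept their direction without any 1 library, where 5 libraries allow no p below 0.0625.

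Same-numbered libraries did not deviate together (correlations of -0.14, -0.10 and -0.07 over kept regions). With the number as a replicate block the difference was -1.96 for the held-out share (exact p = 0.25), and 3 pairs allow no p below 0.25. It was -1.73 for the share and 0.17 for peaks per domain, both given without a test. Peak lists carry no depth outside peaks, so a missing peak is not evidence of missing binding.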
